A study of Mus musculus with 2 samples.

Results

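The 44 genes described here encode proteins that license replication origins, copy DNA and carry chromosomes through mitosis. They are the genes of a list of names that was chosen with earlier results of these data known. Probe sets were taken by their single gene symbol in the annotation of the array platform, not by their values. The genes were read in whole ovaries of newborn mice. Of the 44 genes, 43 had such a probe set among the 18193 genes named on the array, and all 43 gave a measurable signal. Ccnb1, the gene of cyclin B1, had no named probe set and has no value here. The study compared ovaries in which hedgehog signalling is switched on with control ovaries at 2 days of age. Both genotypes carry SmoM2, a constitutively active form of the hedgehog signal transducer Smoothened that is silent until Cre acts. The control mice were Amhr2(+/+)-SmoM2 and had no Cre, and the mutant mice were Amhr2(cre/+)-SmoM2. Cre is expressed from the Amhr2 locus, the receptor gene for anti-Müllerian hormone, which is active in somatic cells of the gonad. The mutant therefore also has 1 altered copy of Amhr2, and the effects of Cre, of that copy and of SmoM2 cannot be told apart. Each group held 1 array, hybridised with equal amounts of RNA from the ovaries of 8 mice, so the differences have no replicate check and no p-value was computed.

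A dividing cell first loads the MCM helicase on its origins with the help of ORC, Cdc6 and Cdt1, then fires them under cyclin E and Cdk2, and later enters mitosis under cyclin A, cyclin B and Cdk1. The spindle checkpoint holds back the anaphase-promoting complex until every chromosome is attached, after which cyclin B and other proteins are destroyed. Most of these genes are transcribed in waves. E2F factors drive genes of the G1 to S transition, and the DREAM and MuvB complexes act on mitotic genes through the cell cycle genes homology region, or CHR, usually next to CCAAT boxes bound by NF-Y. In the newborn ovary the oocytes have stopped dividing and rest in meiotic prophase, so ongoing divisions are those of somatic cells, blood and immune cells. Oocytes nevertheless hold transcripts of several mitotic regulators, which they use when meiosis resumes.

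Both arrays had the same trimmed mean signal of 500.003. The signal minimum used here, 80.7, was reached by 50.3% of probe sets for control and 49.8% for mutant ovaries. The ratio of 3' to 5' signal, a sign of RNA or labelling quality, was 8.48 in control and 10.5 in mutant ovaries for beta-actin, and 3.28 and 4.98 for Gapdh. Its part in the values below was not tested. Signal intensities are linear, and the log2 ratio is that of mutant over control after 22.2 was added to each signal. A gene is represented by its brightest probe set. Over all genes with several measured probe sets, these differed with an SD of 0.385 on the log2 ratio, the only measure of error these arrays offer. In whole ovaries, fewer cells of a type and less RNA per cell cannot be told apart.

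Promoter sequences are shown because E2F and CHR matches lay mostly in different groups of members. The 250 bases before the start site are given for 7 of them, from RefSeq on the GRCm38.p6 build, 5′ to 3′ on the strand of the gene. Capitals mark matches on either strand to the 3 motifs searched. The E2F motif was TTTCCCGC, TTTCGCGC, TTTGCCGC or TTTGGCGC, the CHR motif was TTTGAA or TTCGAA, and the CCAAT box was CCAAT. Mcm6, a subunit of the replicative helicase (chr1:128359706-128359955, minus strand), and Pola1, the catalytic subunit of DNA polymerase alpha (chrX:93632156-93632405, minus strand), stand for genes with an E2F motif. Cdk1, the mitotic kinase (chr10:69352913-69353162, minus strand), held all 3 motifs. Ccnb2, cyclin B2 (chr9:70421555-70421804, minus strand), and Mki67, the proliferation antigen Ki-67 (chr7:135716380-135716629, minus strand), stand for genes with CHR and CCAAT. Ccnb2 has a further CHR match that begins 4 bases past the start site, outside the stretch shown. Ube2c (chr2:164769679-164769928, plus strand) and Birc5 (chr11:117848987-117849236, plus strand) are shown because they were the members lowest in the mutant pool.
Mcm6: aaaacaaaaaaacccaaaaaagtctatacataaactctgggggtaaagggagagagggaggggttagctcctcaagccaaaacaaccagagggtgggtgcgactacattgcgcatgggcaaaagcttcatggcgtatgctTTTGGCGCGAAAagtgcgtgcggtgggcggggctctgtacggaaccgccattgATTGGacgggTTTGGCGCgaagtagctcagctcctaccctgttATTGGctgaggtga
Pola1: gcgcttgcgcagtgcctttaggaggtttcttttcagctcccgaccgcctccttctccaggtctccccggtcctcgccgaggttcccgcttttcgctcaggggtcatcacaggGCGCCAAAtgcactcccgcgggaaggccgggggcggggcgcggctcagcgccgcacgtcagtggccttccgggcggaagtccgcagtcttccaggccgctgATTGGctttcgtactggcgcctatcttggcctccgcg
Cdk1: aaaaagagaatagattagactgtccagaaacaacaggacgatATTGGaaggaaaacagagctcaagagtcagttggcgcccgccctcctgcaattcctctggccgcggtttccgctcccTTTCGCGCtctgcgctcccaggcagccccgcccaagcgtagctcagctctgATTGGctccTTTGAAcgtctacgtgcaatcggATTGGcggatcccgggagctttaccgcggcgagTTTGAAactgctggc
Ccnb2: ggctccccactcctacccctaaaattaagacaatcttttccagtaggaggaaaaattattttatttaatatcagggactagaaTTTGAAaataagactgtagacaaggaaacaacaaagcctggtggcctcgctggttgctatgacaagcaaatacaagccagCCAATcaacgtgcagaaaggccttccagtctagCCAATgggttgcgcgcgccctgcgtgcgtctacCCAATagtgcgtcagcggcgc
Mki67: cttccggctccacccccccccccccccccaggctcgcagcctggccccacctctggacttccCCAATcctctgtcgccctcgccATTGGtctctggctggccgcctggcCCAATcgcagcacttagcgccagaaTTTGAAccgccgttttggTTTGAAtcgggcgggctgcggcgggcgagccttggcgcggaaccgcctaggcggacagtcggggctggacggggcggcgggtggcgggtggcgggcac
Ube2c: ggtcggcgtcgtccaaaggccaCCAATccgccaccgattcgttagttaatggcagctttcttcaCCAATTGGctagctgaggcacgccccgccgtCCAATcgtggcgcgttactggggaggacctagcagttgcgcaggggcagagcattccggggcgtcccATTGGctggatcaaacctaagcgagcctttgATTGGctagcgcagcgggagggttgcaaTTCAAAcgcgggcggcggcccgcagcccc
Birc5: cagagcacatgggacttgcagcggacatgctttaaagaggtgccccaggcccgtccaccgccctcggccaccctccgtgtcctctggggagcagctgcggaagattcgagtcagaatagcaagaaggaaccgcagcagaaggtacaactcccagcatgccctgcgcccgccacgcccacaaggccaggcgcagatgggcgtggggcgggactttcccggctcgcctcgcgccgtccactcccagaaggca

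The lines show 3 E2F matches in Mcm6, 2 of them overlapping, 2 CHR matches and 3 CCAAT boxes in Mki67, and 6 CCAAT boxes with 1 CHR match in Ube2c, where 2 boxes on opposite strands overlap. Overlapping matches were counted separately, and no E2F, CHR or CCAAT match overlapped one of another kind in these 7 stretches. In a window of Mcm7, not shown, an E2F and a CCAAT match overlap. The Birc5 stretch held none of the motifs. Windows of 300 bases, 250 before and 50 after the start site, were found for 38 members. Some genes, such as Mcm7 and Bub3, had several windows. Counts here and below are of genes, and a gene held a motif when any of its windows did. The windows of 10 members (26.3%) held an E2F motif, against 4.68% of the 9967 measured genes that had a window. A CHR motif lay in 19 of the 38 members against 16.3%, and a CCAAT box in 32 (84.2%) against 42.8%. Aurkb, Ccna2, Ccne2, Gmnn, Mcm4 and Tpx2 had no window in the table.

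E2F matches were in 7 of 9 licensing windows (Orc1, Cdc6, Cdt1, Mcm3, Mcm5, Mcm6 and Mcm7), in 2 of 8 S phase windows (Cdk2 and Pola1) and in 1 of 21 mitotic windows, that of Cdk1. CHR matches were in 16 of the 21 mitotic windows and in 3 licensing windows, those of Mcm2, Mcm7 and Cdc45. No S phase window held a CHR match, so 6 of those 8 held neither, as did 11 of the 38 members. All 19 members with a CHR match also held a CCAAT box. Members with an E2F motif had a median of -0.08 (range -0.47 to 0.17), and members with a CHR motif had a median of -0.09 (range -0.62 to 0.43). A match describes letters in a window and does not show that a factor binds there.

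**Figure D1:**
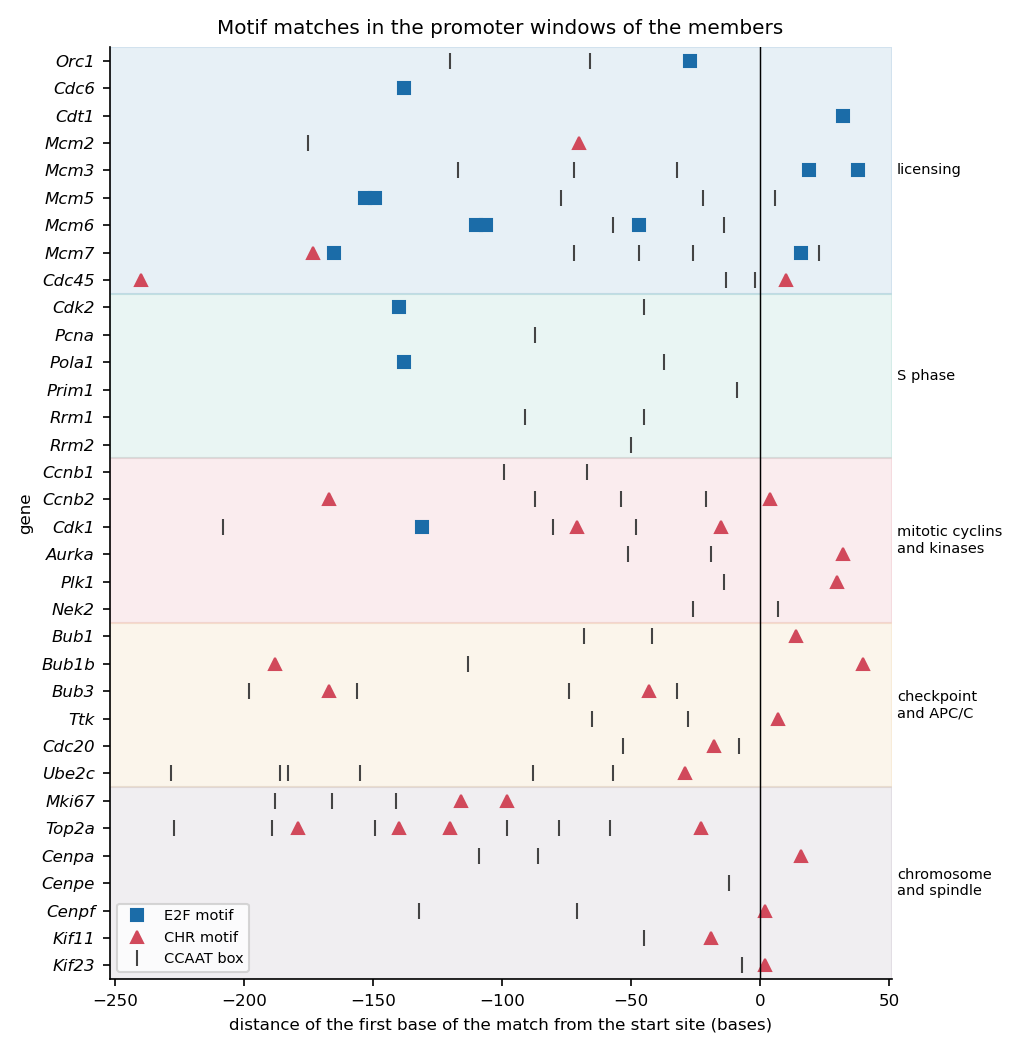
Matches to the E2F motif (squares), the CHR motif (triangles) and the CCAAT box (vertical ticks) by distance in bases from the start site, 1 row per member with a match. Squares lie in licensing and S phase genes apart from Cdk1, and triangles lie mostly in the 3 mitotic groups; Birc5, Ccne1, Mad2l1 and Tyms had no match and are not drawn.

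The replication and mitosis genes as a whole read close to the same in both pools. Their median log2 ratio was -0.05 (range -0.69 to 0.43), and that of all 12308 measured genes was -0.02. None of the 43 members was at least 1.5-fold higher in the mutant pool, where 9.32% of all measured genes were. At least 1.5-fold lower were 2 members, Birc5 and Ube2c, or 4.65% against 7.90% of all measured genes. No member reached 2-fold in either direction (3.21% of all genes higher, 1.40% lower). Their SD of 0.265 on the log2 ratio compares with 0.520 over all measured genes. Dim genes vary more, and 42 members had a mean signal above the 25th percentile of the measured genes. Over that brighter range 6.93% of genes were at least 1.5-fold higher and 5.95% lower, with an SD of 0.469, and the 42 members had an SD of 0.259. The log2 ratio of 37 members lay within the probe-set SD of 0.385 from 0, with 5 below (Birc5, Ube2c, Tyms, Orc1 and Ttk) and 1 above (Cenpa). The share of all measured genes within that SD was not computed, so the count is not read as particular to the members. The 25th and 75th percentiles of the log2 ratio were -0.33 and 0.07 for members, and -0.27 and 0.25 for all measured genes. Probe sets whose name ends in _s_at, _x_at or _a_at hold probes that may match several transcripts, and are called shared here. Without shared probe sets, the median was -0.17 over 38 members and -0.04 over all genes.

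**Figure D2:**
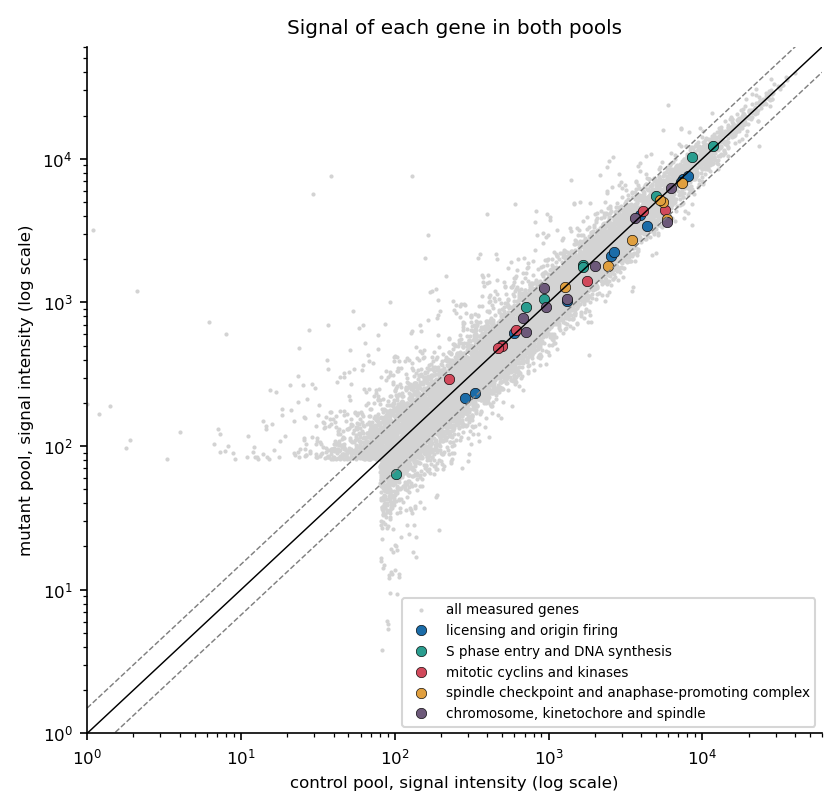
Signal intensity of each gene in the control pool (horizontal) and in the mutant pool (vertical), both on log scales, with members coloured by group and all 12308 measured genes in grey. The solid line marks equal signals and the dashed lines 1.5-fold; of the members, Birc5, Ube2c and the dim Tyms lie beyond the lower dashed line by raw signal and none beyond the upper one.

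None of the licensing and origin firing genes differed by 1.5-fold between the pools. The median log2 ratio of the 11 was -0.25 (range -0.47 to 0.06), and 9 of 11 (81.8%) lay below 0, against 52.5% of all measured genes. Apart from Orc1 they lay within the probe-set SD of 0.385 from 0. Orc1 (Entrez gene 18392), the ATP-binding subunit of the origin recognition complex, gave a signal of 332 in control and 234 in mutant ovaries (log2 ratio -0.47). A dim second Orc1 probe set read 103 and 8.5, which bounds the fold only at 1.27 or more. Cdc45, which joins the MCM ring to form the active helicase, read 286 and 217 (-0.37). Gmnn, the gene of geminin, which keeps Cdt1 from loading origins again, read 4346 in control and 3417 in mutant ovaries (-0.35). Its target Cdt1 read 7438 and 7273 (-0.03), with 636 and 432 on a dimmer probe set. Cdc6, which loads the helicase together with Cdt1, read 594 and 612 (0.04). On their brightest probe sets Cdt1 and Cdc6 were level, and geminin, the inhibitor of Cdt1, was 1.27-fold lower, within the probe-set SD.

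The MCM genes, whose 6 products form the ring of the helicase, differed little, and their probe sets did not agree on a direction. Mcm3 gave a signal of 1311 in control and 1017 in mutant ovaries on its brightest probe set (log2 ratio -0.36), while its other measured probe sets gave -0.10, 0.04 and 0.33. Mcm2 read 2555 and 2096 (-0.28) and 0.04 on the log2 scale for the other probe set. Mcm6 read 2660.5 and 2231 (-0.25), against 0.08 for its second. These 3 genes each had a probe set on either side of 0. Mcm7 read 8083 and 7618 (-0.09) with probe sets from -0.14 to 0.22. Mcm5 read 7269 and 6918 (-0.07) with probe sets from -0.31 to 0.03. Mcm4 was the only MCM gene with all its probe sets above 0, at 3914 and 4088 (0.06) and at 0.62 on a second probe set, whose signals were 2559.7 and 3935. The group median moved to -0.09 when each gene was given the median over its measured probe sets.

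S phase entry and DNA synthesis genes had the highest median of the 5 groups, 0.12 (range -0.53 to 0.36), with 8 of 9 ratios above 0 and none at 1.5-fold. Ccne2 (12448), cyclin E2, an activator of Cdk2, gave a signal of 715 in control and 926 in mutant ovaries (0.36). Ccne1, cyclin E1, read 502 and 504 (0.01), and its second probe set read 164 and 242 (0.51). Cdk2, their kinase partner, read 929.6 and 1051 (0.17). All 4 measured probe sets of the cyclin E genes and Cdk2 were above 0. Rrm2, the regulated small subunit of ribonucleotide reductase, read 8588 and 10260 (0.26), with 0.34 and 0.10 on its other probe sets. Rrm1, the large subunit, read 1688 and 1770.3 (0.07), and -0.26 on a dimmer probe set. Ribonucleotide reductase makes the deoxynucleotides for DNA synthesis, and its small subunit was on the higher side with each of its 3 probe sets.

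The polymerase alpha and primase members and Pcna were level on their brightest probe sets. Prim1, the primase that starts each new strand, read 4979 in control and 5551 in mutant ovaries (log2 ratio 0.16), and its other probe set gave -0.23. Pola1 read 1666 and 1815 (0.12). Pcna, the sliding clamp and a common mark of S phase, read 11652 and 12323 (0.08). Tyms, thymidylate synthase, was the exception on the lower side, at 102 in control and 63.5 in mutant ovaries (-0.53). Its mutant value lay under the signal minimum, so the fold is known only as at least 1.26. A further probe set that the annotation gives to both Tyms and a pseudogene was left out, and the other 3 Tyms probe sets were too dim in both pools.

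Mitotic cyclins and kinases had a median of 0.04 on the log2 ratio (range -0.38 to 0.34) over 7 measured genes, with 5 above 0. Cdk1 (12534), the kinase that drives entry into mitosis, gave a signal of 5736 in control and 4417 in mutant ovaries (-0.38). Ccnb2 (12442), one of its cyclins, read 1789 and 1399 (-0.35). Cdk1 and Ccnb2 were thus 1.30-fold and 1.28-fold lower, each on its only probe set. Ccna2, cyclin A2, which acts with Cdk2 and with Cdk1, read 4144 and 4354 (0.07), but 1479.9 and 1149 (-0.36) on the other probe set. Plk1, the polo-like kinase of centrosomes and kinetochores, went the other way, at 226 and 293 (0.34) on its only probe set. Aurka, the Aurora kinase of spindle poles, read 617 and 642 (0.05). Aurkb, the Aurora kinase of the chromosomal passenger complex, read 497 and 499.7 (0.01), and 220 and 303 (0.42) on a second probe set. Nek2, which separates centrosomes, read 468 and 481 (0.04), and 214 and 253 (0.22). On their brightest probe sets the kinases other than Cdk1 read between 0.01 and 0.34, and the ratios of all 7 genes lay within the probe-set SD of 0.385 from 0.

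The spindle checkpoint and anaphase-promoting complex genes had a median of -0.15 on the log2 ratio (range -0.62 to 0.00), with 6 of 7 ratios below 0. Ube2c (68612), the ubiquitin-conjugating enzyme of the anaphase-promoting complex, gave a signal of 5861 in control and 3800.3 in mutant ovaries, 1.54-fold lower (-0.62) on its only probe set. Ttk, the kinase at the top of the checkpoint, read 2441 and 1788 (-0.44), and 171 and 76.6 (-0.97) on a dimmer probe set. Bub1, a kinetochore kinase, read 3502 and 2727 (-0.36) and 574 and 578 (0.01). For Ttk both probe sets were on the lower side, and for Bub1 only the brighter one. Mad2l1, which binds Cdc20 while chromosomes are unattached, read 5528 and 4968 (-0.15). Bub3 read 7371 and 6782 (-0.12), with -0.52 and 0.46 on dimmer probe sets. Cdc20, the activator of the anaphase-promoting complex, read 5316 and 5133 (-0.05), and its other 2 measured probe sets gave -0.08 and -0.49. Bub1b, the gene of BubR1, was level at 1279.8 and 1281 (0.00). Without shared probe sets, the median of the group was -0.36.

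Chromosome, kinetochore and spindle genes included both the lowest and the highest ratio of all members, with a median of -0.05. Birc5 (11799), survivin, a subunit of the chromosomal passenger complex and an inhibitor of apoptosis, gave a signal of 5888 in control and 3642 in mutant ovaries, 1.62-fold lower (log2 ratio -0.69) on its only probe set. Its kinase partner Aurkb was level on its brightest probe set (0.01), while the other gave 0.42, as above. Cenpa, the histone variant of centromeres, read 930.2 and 1264 (0.43), but a dim second probe set read 122 and 63.6 (-0.75). The highest member thus rested on 1 of 2 measured probe sets that pointed in opposite directions. Mki67 (17345), a common proliferation marker, read 6216 and 6249.8 (0.01). Top2a, the topoisomerase that untangles sister chromatids, read 3656 and 3857 (0.08), with 0.10 on a second probe set. Both of these markers of cycling cells were level between the pools.

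Among the kinetochore and spindle motors, Cenpe, a kinesin that moves chromosomes to the spindle equator, read 1321 in control and 1065 in mutant ovaries (log2 ratio -0.31). Cenpf, a large kinetochore protein, read 2018 and 1781 (-0.18), and 190.4 and 134 (-0.45) on the other probe set. Tpx2, which activates Aurora A and seeds spindle microtubules, read 718 and 622 (-0.20), and its other 2 measured probe sets gave -0.49 and -0.56. These 3 genes were lower on each measured probe set. Kif11, the motor that pushes spindle poles apart, read 685 and 782 (0.19), with 0.11 and -0.35 on its other probe sets. Kif23, a motor of the central spindle in cytokinesis, read 967 and 935 (-0.05).

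**Figure D3:**
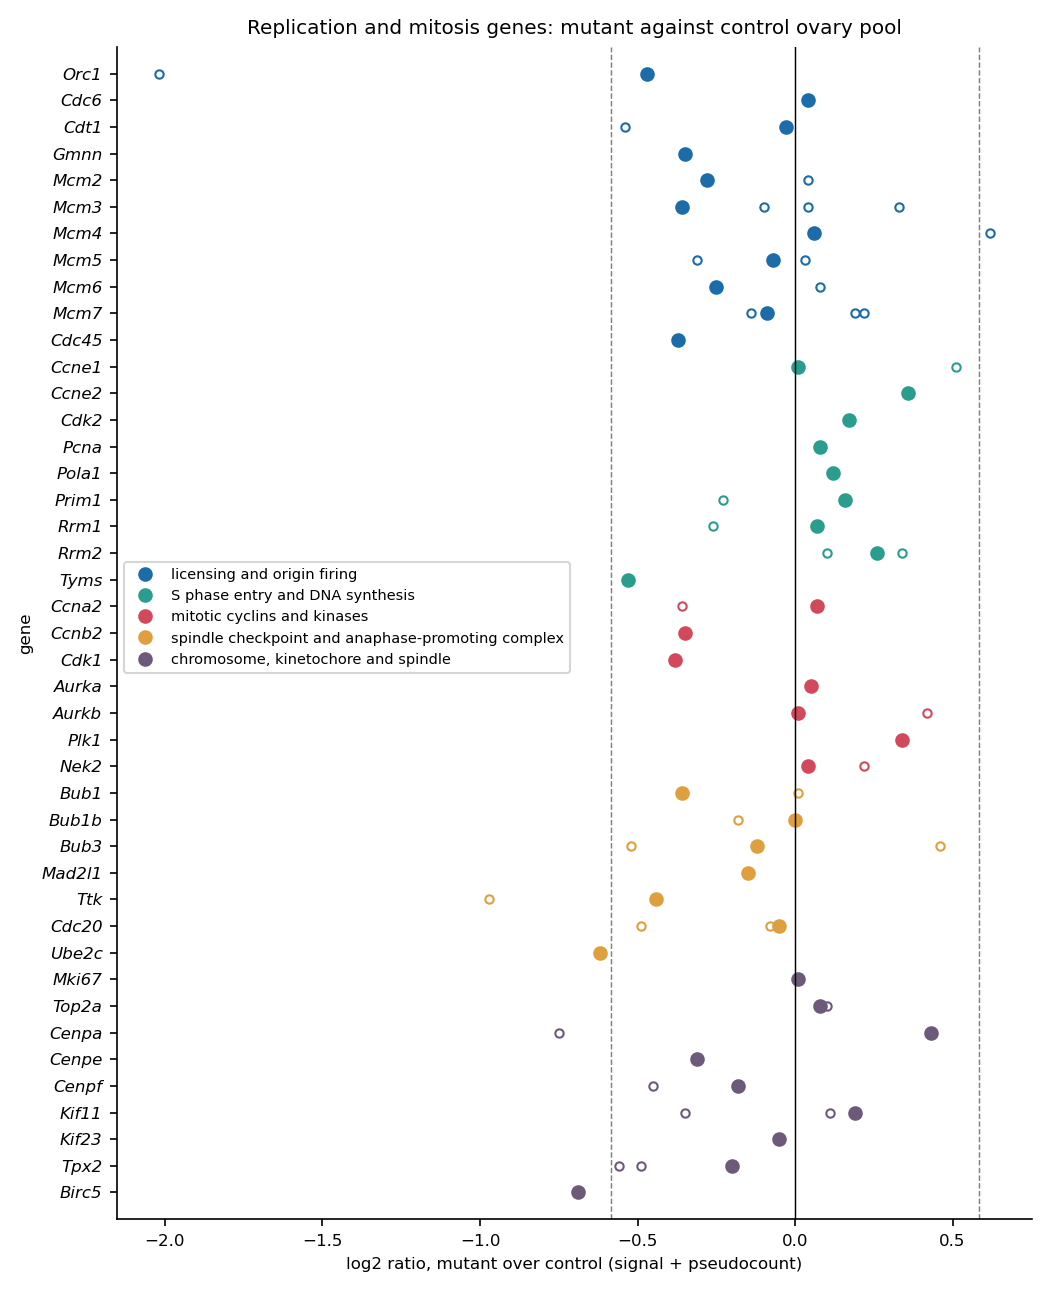
Log2 ratio of mutant over control for the 43 measured members, by cell cycle group, with the brightest probe set of each gene as a filled point and its other measured probe sets as open points. Dashed lines mark 1.5-fold; the filled points beyond the lower line are Ube2c and Birc5, and none lies beyond the upper line.

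With dim ones included, probe sets of the same member often differed as much as the members did on their brightest probe sets. The members had 101 named probe sets, of which 78 were measured, and 41 of these lay below 0. At least 1.5-fold lower were 5 probe sets, those of Birc5 and Ube2c and the dim second ones of Orc1, Ttk and Cenpa, and 1 was at least 1.5-fold higher, the second one of Mcm4. These are 6.41% and 1.28% of the measured probe sets of members, against 9.87% and 8.81% of all 20576 measured probe sets. Both signals reached the minimum in 2 of the 5 lower ones, Birc5 and Ube2c. Several measured probe sets existed for 25 members, and in 13 of these they lay on both sides of 0. The same count was not made over all 5118 genes with several measured probe sets. It is therefore not read as particular to the members. The SD between probe sets of a member was 0.350, and the SD between members was 0.265. These are unlike measures, as the SD between members uses only the brightest probe set of each. The SD between probe sets includes dim ones, and 8 of the 78 had 1 signal under the minimum. Birc5 and Ube2c had no second probe set to set beside them. With the mean over measured probe sets in place of the brightest, 4 members were at least 1.5-fold lower, as Orc1 and Ttk joined them. That is 9.30% of members, against 8.21% of all genes by the same rule. These shares lie close together, and which of them was higher depended on the rule.

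Other genes of the same processes were examined as a list of 116 that does not include the members, and 112 were measured. Their median log2 ratio was -0.15 (range -0.88 to 0.65), with 76 below 0, which is 67.9% against 52.5% of all measured genes. At least 1.5-fold lower were 7 (6.25% against 7.90% of all measured genes), and 2 were at least 1.5-fold higher (1.79% against 9.32%). With the mean over probe sets 11 of them (9.82%) were lower, against 8.21% of all genes, again close together. The 27 measured genes of the replication fork and of nucleotide supply had the lowest median of the lists of these processes, -0.35, with 23 of 27 below 0. The S phase and DNA synthesis members went the other way, with a median of 0.12 and 8 of 9 above 0. Among the fork and nucleotide genes, Rfc3, a subunit of the clamp loader, gave a signal of 809 in control and 524 in mutant ovaries (-0.61). Its other probe set gave -0.65. Rpa2, a subunit of the single-strand DNA-binding complex, read 1366 and 892 (-0.60), and -0.71 on the other. Both genes were lower on each of their probe sets.

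The 16 other licensing and origin factors had a median log2 ratio of -0.31, with 12 below 0, close to that of the licensing members. Ticrr, the gene of treslin, which helps fire origins, gave a signal of 319 in control and 164 in mutant ovaries (-0.88). Of 18 mitotic entry and exit regulators, with a median of -0.16, Espl1 and Fzr1 were past 1.5-fold. Espl1, separase, the protease that cuts cohesin at anaphase, read 526 and 291 (-0.80). Fzr1, the second activator of the anaphase-promoting complex, read 262 and 162 (-0.63). The 32 measured kinetochore, spindle and cytokinesis genes had a median of -0.13. Cenph, an inner kinetochore protein, read 1323 and 712 (-0.87). Spc24 and Nuf2, both subunits of the Ndc80 complex that grips microtubules, lay on opposite sides, each on a lone probe set. Spc24 read 2238 and 1404 (-0.66), and Nuf2 read 678 and 1052 (0.62). Condensin and cohesin genes had a median of 0.15 with 10 of 19 above 0. Rad21, the cleavable subunit of cohesin, read 2968 and 4668 (0.65) and had probe sets from -0.05 to 0.74.

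**Figure D4:**
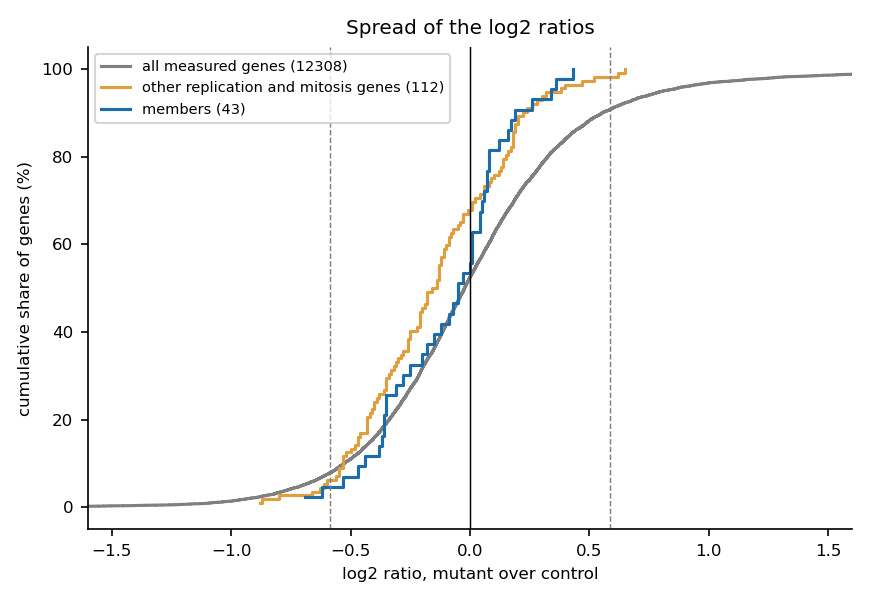
Cumulative share of genes (vertical, percent) by log2 ratio of mutant over control (horizontal) for the 43 members, the 112 other replication and mitosis genes and all 12308 measured genes. Dashed lines mark 1.5-fold; the curve of the members is the steepest, and the curve of the other genes lies mostly to its left.

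Markers of the ovary's cell types differed more between the pools than the cell cycle genes did. The marker lists, too, were chosen with earlier results of these data known. Oocyte markers were measured for 15 of 16 genes, all 15 ratios lay below 0, and their summed signal was 53827 in control and 35448 in mutant ovaries. Sohlh1, an oocyte transcription factor, had the lowest ratio of the list at 877 and 366 (log2 ratio -1.21), and Figla, another, read 7591 and 3888 (-0.96). Pregranulosa markers were measured for 12 of 13 genes, with 9 below 0, and their summed signal was 40861 and 30714. The list includes Amhr2, into which the Cre allele of the mutants was placed, which read 8591 and 3486 (-1.30), its lowest ratio. The 3 measured Amhr2 probe sets ranged from -1.30 to -0.26. Without Amhr2, 8 of 11 lay below 0 and the sums were 32270.4 and 27228. Foxl2, which marks the granulosa lineage, read 8097 and 4182 (-0.95). The pregranulosa markers above 0 on their brightest probe sets were Inha (0.52), Gata4 (0.41) and Kitl (0.18). Both pools thus held the defining markers of an ovary, and among these lists only Bmp15 and Amh were too dim. Stroma markers were measured for 11 of 12 genes, with 10 above 0, and their summed signal was 87532 in control and 127500.2 in mutant ovaries. Vcan, the matrix proteoglycan versican, read 2384 and 5764 (1.27), and Pdgfra, a growth factor receptor of mesenchymal cells, read 7298 and 16038 (1.13).

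Steroidogenic markers were measured for 6 of 8 genes, all above 0, with summed signals of 9416 in control and 53091 in mutant ovaries. Leukocyte markers (8 of 9 measured, 6 above 0) had summed signals of 5118 and 8332, and endothelial markers (7 of 8 measured, 6 above 0) 2429 and 3219. Erythroid markers were measured for 5 of 9 genes with 4 below 0, and their summed signal was 2858 in control and 1460.1 in mutant ovaries. Alas2, which starts haem synthesis in erythroid cells, read 409 and 116 (-1.64), while the erythroid factor Gata1 lay above 0 (0.30). By comparison, the summed signal of the 43 cell cycle members was 136787 and 128747. The part of these cell types in the values of the cell cycle genes was not tested.

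**Figure D5:**
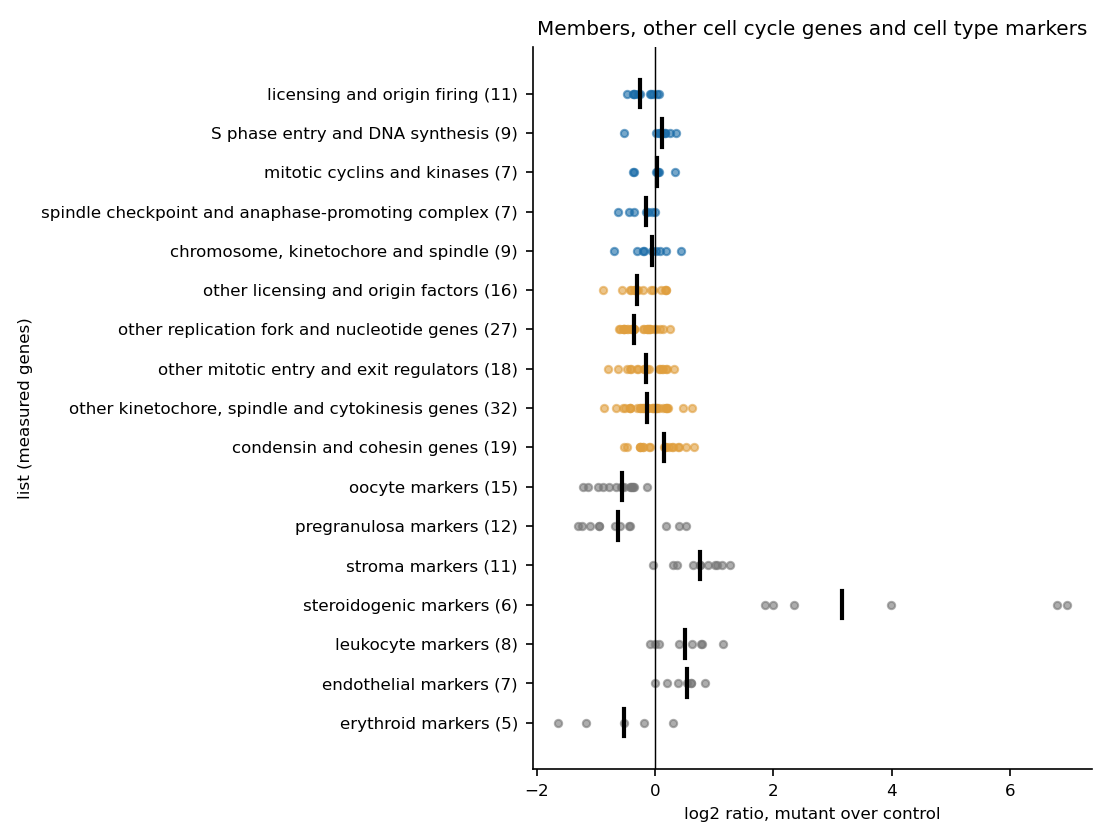
Log2 ratio of mutant over control for each measured gene of the 5 member groups (blue), the 5 lists of other replication and mitosis genes (orange) and 7 lists of cell type markers (grey), with a black bar at each median. The medians of the cell cycle lists lie between -0.35 and 0.15, and those of the marker lists between -0.63 and 3.17.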

How the data were processed

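Probe-set signal intensities of 2 Affymetrix mouse arrays (45101 probe sets, 1 array per genotype) were deposited by the authors on a linear scale, and the submitters' processing notes name GCOS. The equal trimmed means (2% removed at each end) show a common scale, and the step that set it is not given in the sources used here. Intensities were used as deposited. Of the probe sets, 34945 had 1 gene symbol, and 64 array controls were left out. A probe set counted as measured when its higher signal reached 80.7, the median of all values, and 22.2, the 25th percentile, was the pseudocount. Where 1 signal lay under the minimum, the fold is a bound, the brighter signal over 80.7. The filter keeps dim genes that are high in either pool, and 42 of the 43 members had both signals above it.

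The members and gene lists were chosen with earlier results of these data known. The text names all members and those of the other genes that were 1.5-fold different. It also names some of the 4 genes with the largest absolute ratio in 4 of the 7 marker lists. Bmp15 and Amh, which were too dim, are named too, as are Inha, Gata4 and Kitl, the pregranulosa markers above 0. Analyses used python 3.11.15, pandas 2.3.3, numpy 2.4.6 and scipy 1.17.1. The log2 ratio calculation was run on simulated signals with planted 2-fold changes and noise smaller than the probe-set SD. That run checks the calculation only, and not the reliability of smaller differences. Motifs were searched on both strands. 12 alternative settings were run.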

Additional observations from a re-analysis of the deposited data

How the results depend on the processing

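Each result was recomputed under 12 alternative settings, which changed the signal minimum, the rule for a measured gene, the pseudocount, the scaling or the choice of probe sets. None of the members was at least 1.5-fold higher under any of the 12. The count of members that were lower ranged from 2 to 4, with 4 (9.30%) for both the mean and the median over measured probe sets, where 8.21% and 8.17% of all genes were lower. Under the other 10 settings the members' share lay below that of all genes. Birc5 was not represented without the shared probe sets (_s_at, _x_at and _a_at), and Cenpa was then among the 2 lower members at -0.75. The median over members moved from -0.05 to -0.17 without those probe sets. The licensing median of -0.25 became -0.09 with a signal minimum of 442, the 75th percentile of all values, -0.12 with the mean and -0.09 with the median over probe sets. The spindle checkpoint median of -0.15 became -0.36 without shared probe sets. The S phase median lay between 0.10 and 0.14 under all 12 settings.

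For the other replication and mitosis genes, the median of -0.15 became -0.20 with the mean over probe sets, -0.21 with the median, and -0.21 without shared probe sets. Their 7 lower genes became 4 with a pseudocount of 80.7, 11 with the mean and 12 with the median over probe sets. Their shares were 3.57%, 9.82% and 10.7%, against 4.96%, 8.21% and 8.17% of all genes. Which share was higher thus depended on the setting here too, and the differences were not tested. Their 2 higher genes became 1 with that pseudocount, with the mean over probe sets and without shared probe sets. The cause was not tested, apart from the pseudocount, which shrinks ratios of dim genes by construction. A median was taken as moved when it differed by more than the probe-set SD divided by the square root of the number of genes. This is a cut-off and not a test, because genes read on the same 2 arrays are not independent replicates. No named gene past 1.5-fold turned its sign. Cenpa, under 1.5-fold, went from 0.43 to -0.16 with the mean or the median over its probe sets.

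Leaving out a replicate was not possible with 1 array per group. No paired analysis was possible because each group held 1 pooled sample. With 2 arrays in all, the spread between probe sets is the only estimate of error, and it leaves out the spread between mice.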
